A study of Mus musculus with 8 samples.

Results

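Genes were described in which repopulating microglia stood apart from both other cell populations of the study at once. Microglia are macrophages that live in the brain, and repopulating microglia are those found after the original cells have been depleted. A gene was taken when its values in all 3 repopulating libraries lay above, or all below, those of the 5 other libraries. Of 23413 genes in the table, 11415 were tested (those that reached 10 normalised counts in 2 or more libraries) and 1022 of these met the rule, which is 8.95%. In 490 genes, or 4.29% of those tested, the repopulating libraries were the highest, and in 532 genes, or 4.66%, they were the lowest. These are called genes above and genes below in what follows. A normalised count is a gene's read count divided by a size factor of its library. The separation of the libraries chose these genes, so it is a description of them and not a test.

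RNA was sequenced from 3 libraries of repopulating microglia (strain label DTRmg), 2 of wild-type microglia (strain label DTR) and 3 of bone-marrow macrophages (strain label DTRmg). One treatment text stands on every sample, wild type included: 2 mg of subcutaneous tamoxifen at postnatal days 12 and 14, and 500 ng of diphtheria toxin into the abdomen in 3 injections to deplete microglia. Brain tissue was dissociated with papain, and cells were enriched by Percoll and sorted by flow cytometry. The labels give no age at collection, no interval after the toxin and no promoter for the toxin receptor. Whether the bone-marrow macrophages came out of marrow or brain is not stated. Nor is it stated that replicates are separate animals, so the p-values refer only to the spread among these samples, and that spread may be technical. Differences from wild type cannot be told apart from a difference of strain label, whereas repopulating microglia and bone-marrow macrophages share the label DTRmg.

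Microglia persist in the adult brain by dividing locally, with little input from the blood. When most of them are killed, the niche is refilled within days, by division of surviving microglia or by myeloid cells from the bone marrow that take on a macrophage form. Interleukin-1, the subject named in the title of the study, is an inflammatory cytokine made by microglia among other cells, and it signals through the receptor Il1r1.

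Reads counted in genes ranged from 5918944 to 12476427 per library. Library 3 of the repopulating microglia stood apart from libraries 1 and 2. Over all tested genes, its log2 values correlated at r = 0.94 and 0.92 with theirs, whereas theirs correlated at 0.98 with each other. It was also the only library that held both Xist and Y-linked transcripts at a level above a few counts. The share of reads in ribosomal protein genes was 6.61% in this library, against 10.01% and 10.2% in libraries 1 and 2, 4.66% and 5.36% in the wild type and 9.25% to 9.70% in the bone-marrow macrophages. Among the others, the repopulating and the bone-marrow groups each had libraries with Xist and a library with Y-linked transcripts, and both wild-type libraries had Xist alone. The label of the repopulating cells was checked against 8 microglial markers, among them P2ry12, Tmem119, Sall1 and Siglech. Their summed level was 232800 to 272600 normalised counts in repopulating microglia, 332400 and 376600 in the wild type and 76390 to 85120 in the bone-marrow macrophages. None of the 8 was absent from the repopulating libraries. P2ry12 itself, a purinergic receptor, stood at 36757, 27059 and 34120 in the repopulating libraries, between the wild type (75180 and 68682) and the bone-marrow macrophages (2959.6, 4044 and 3020.2).

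The main test set repopulating microglia against the mean of the 2 other groups, each group weighted equally, on the log2(normalised count + 1) scale. With limma at a Benjamini-Hochberg adjusted p of 0.05 it called 1277 genes (11.2% of those tested), 649 higher (5.69%) and 628 lower (5.50%). Scaling each library to the same total in place of the authors' factors moved the median of all genes from 0.02 to -0.16 and gave 415 higher and 1294 lower. Of the genes above, 307 (62.7%) were called in this test, and of the genes below 291 (54.7%), shares that the choice of the genes raises. A gene can be called against the mean because of 1 group alone: 679 of the 1277 calls were not among the 1022 genes, and in 286 of them the repopulating mean lay between those of the other groups. Over all tested genes, the repopulating mean lay between the other 2 in 6336 (55.5%), above both in 2473 (21.7%) and below both in 2605 (22.8%).

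The same fit compared repopulating microglia with each group on its own, and these comparisons share the repopulating libraries. Against the wild type 555 genes were higher (4.86%) and 428 lower (3.75%). Against bone-marrow macrophages 1826 were higher (16.0%) and 1700 lower (14.9%). Of the genes above, 137 were called higher than the wild type and 331 higher than bone-marrow macrophages. The corresponding numbers for the genes below were 133 and 346. The wild-type mean was the nearer one for 315 genes above and 329 genes below. Asking for a difference from each group at once, with the larger of the 2 p-values adjusted over all genes, left 15 genes (0.131%). Of these 6 were higher and 9 were lower, and all 15 were also called by edgeR and by DESeq2 on the recovered reads. At an unadjusted p under 0.05 the same test gave 603 genes.

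**Figure D1:**
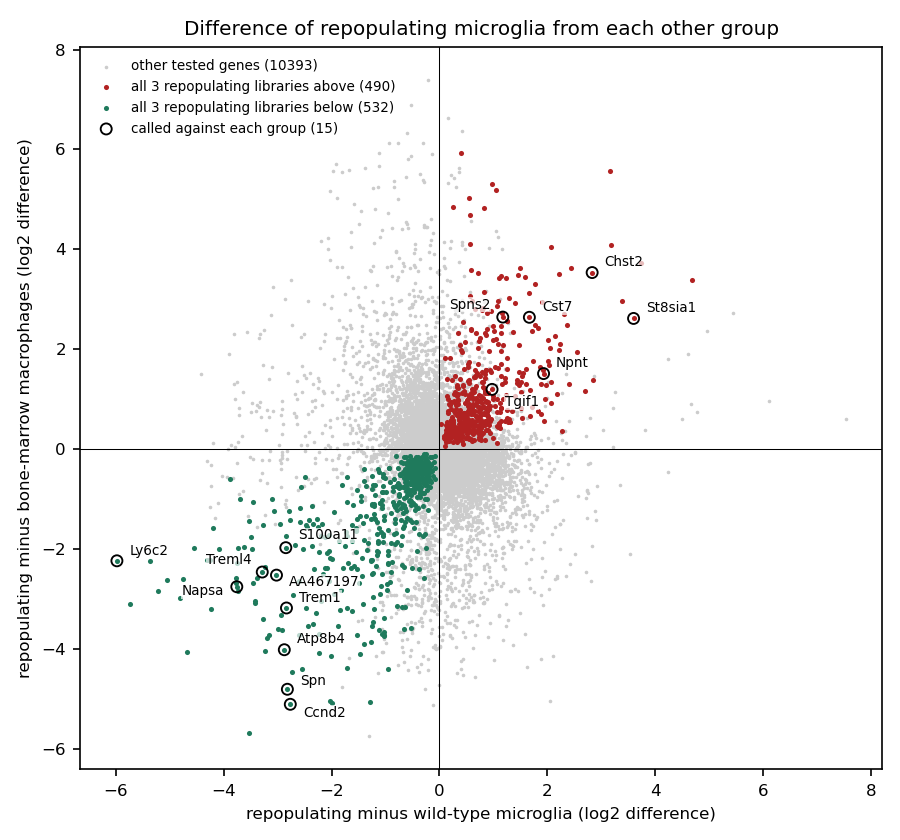
Each point is 1 of the 11415 tested genes, with the log2 difference of repopulating microglia from wild-type microglia on the horizontal axis and from bone-marrow macrophages on the vertical axis. Red points are the 490 genes above, green points the 532 genes below, and circles mark the 15 genes called against each group, which lie away from the origin at the upper right and the lower left.

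The rule has no minimum size, and it took in genes with a narrow gap. Among genes whose mean was at least 100 in every group, Rsbn1 lay just inside it, with 189.8, 163.8 and 183.1 normalised counts in the repopulating libraries and 163.7 in the highest other library. Cwc25 was just outside, since its lowest repopulating library (140.7) lay under the highest bone-marrow one (140.9). On the lower side, under the same minimum, Eif1ad lay just inside and Tm7sf3 just outside. Both group means were at least 2-fold away from the repopulating mean in 85 of the genes above and 182 of the genes below. In 110 of the genes below no repopulating library reached 10 normalised counts, and 21 of the genes above passed the filter through the repopulating libraries alone. Without library 3 of the repopulating microglia the rule took in 1180 genes above and 929 below. In that library, 512 of the 1180 lay within the range of the other groups and 178 at the opposite end.

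The 6 genes called higher than each group were Chst2, St8sia1, Npnt, Cst7, Spns2 and Tgif1. A sulfotransferase and a sialyltransferase that build cell-surface glycans, a matrix protein, a cysteine protease inhibitor, a sphingosine-1-phosphate transporter and a transcriptional repressor were each highest in all 3 repopulating libraries.

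Chst2, which adds sulfate to N-acetylglucosamine on glycans (GRCm38 chromosome 9, 95399292 to 95406722, minus strand), had 311, 269 and 275 normalised counts in repopulating libraries 1 to 3. The wild-type libraries had 40.6 and 37.6 and the bone-marrow macrophages 19.3, 28.6 and 23.8. Every repopulating library was far above every other one. The difference was 2.83 ± 0.22 from wild type and 3.53 ± 0.20 from bone-marrow macrophages on the log2 scale (± SE), with an adjusted p of 0.0065 for both together (limma). St8sia1, the GD3 synthase that starts the b-series gangliosides (chromosome 6, 142821545 to 142964452, minus strand), had 541, 422 and 267 in the repopulating libraries, 36.3 and 27.5 in the wild type and 74.4, 49.8 and 68.8 in the bone-marrow macrophages. Its lowest repopulating value, in library 3, was still above all 5 others. The differences were 3.60 ± 0.32 and 2.61 ± 0.28, in the same order (limma, adjusted p = 0.015).

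Npnt encodes nephronectin, a matrix ligand of integrins (chromosome 3, 132881745 to 132950291, minus strand). Its 3 repopulating libraries were close together at 1744, 1628 and 1586, over 403 and 465 in the wild type and 489.9, 705 and 561 in bone-marrow macrophages. The difference was 1.93 ± 0.17 from wild type and 1.51 ± 0.15 from bone-marrow macrophages (limma, adjusted p = 0.012). Cst7 encodes cystatin F, an inhibitor of lysosomal cysteine proteases and a marker of disease-associated microglia (chromosome 2, 150570415 to 150578944, plus strand). It had 572, 609.5 and 464 in repopulating microglia, 208 and 140.3 in the wild type and 72.7, 99.7 and 89.9 in bone-marrow macrophages. Wild-type microglia thus lay between the other 2 groups, with differences of 1.67 ± 0.23 and 2.64 ± 0.20 (limma, adjusted p = 0.039).

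Spns2, which exports sphingosine-1-phosphate (chromosome 11, 72451638 to 72489904, minus strand), had 954, 857 and 898 in the repopulating libraries. It had 429.5 and 371 in the wild type and 152, 126 and 154 in bone-marrow macrophages, so that the 3 groups formed 3 steps. The differences were 1.17 ± 0.15 and 2.64 ± 0.13 (limma, adjusted p = 0.034). Tgif1, a homeodomain repressor of TGF-beta target genes (chromosome 17, 70844205 to 70853546, minus strand), changed least of the 6, with 975, 1005 and 832 in the repopulating libraries, 497 and 453 in the wild type and 402, 417 and 405 in bone-marrow macrophages. Its differences were 0.97 ± 0.13 and 1.19 ± 0.12 (limma, adjusted p = 0.039). Without either one of the 2 wild-type libraries, limma called no gene against each group at once (adjusted p), and 380 (without the first) and 447 (without the second) at an unadjusted p under 0.05. Without repopulating library 3 it called 313.

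**Figure D2:**
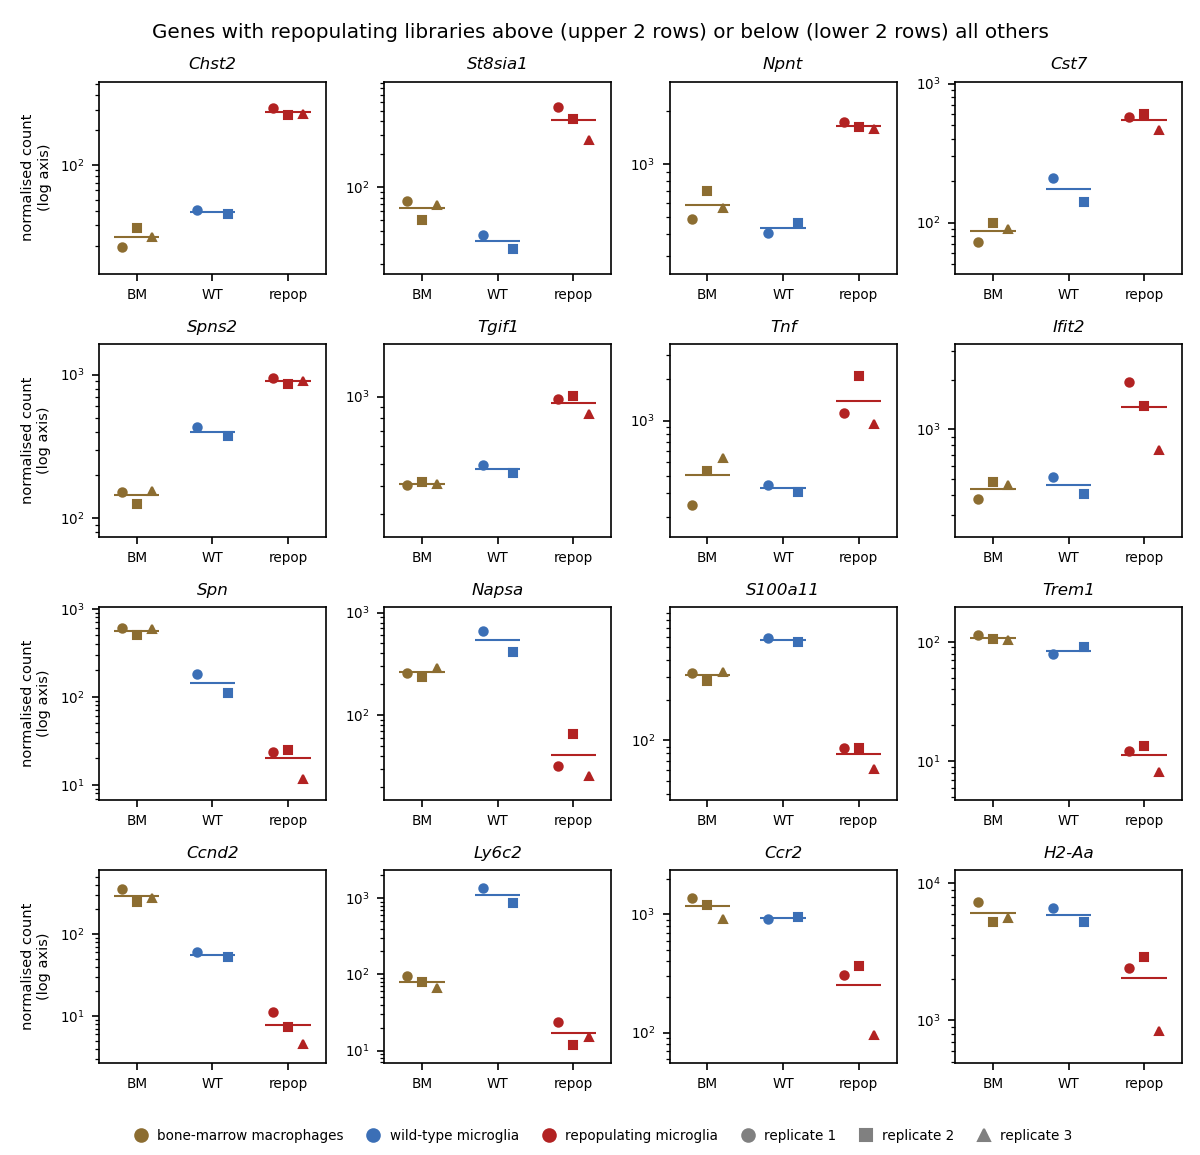
Normalised counts (log axis) of 8 genes above (upper 2 rows) and 8 genes below (lower 2 rows) in each library, with a line at the group mean. BM is bone-marrow macrophages, WT wild-type microglia and repop repopulating microglia, and in every panel the 3 repopulating points lie beyond the 5 others, with library 3 lowest or nearly so in most of them.

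Enzymes of glycan synthesis and sulfation held more of the genes above than these 2. Of 41 tested members of that list 6 lay above (14.6%) and 1 below (2.44%), against 4.29% and 4.66% of all tested genes. Against the mean of both groups 10 were called higher and 3 lower. The median difference was 0.13, against 0.02 over all tested genes. Chst1, a sulfotransferase that acts on galactose (chromosome 2, 92599707 to 92615250, plus strand), had 967, 849 and 753 in the repopulating libraries, against 229 and 91.5 in the wild type and 164, 252 and 256 in bone-marrow macrophages. The repopulating libraries were the 3 highest by a wide margin, and the difference from the mean of both groups was 2.25 ± 0.29 (limma, adjusted p = 0.0025). St8sia6, another sialyltransferase (chromosome 2, 13651021 to 13794064, minus strand), had 151, 153 and 104, against 39.5 and 37.6 in wild type and 21.6, 19.1 and 30.0 in bone-marrow macrophages, a difference of 2.13 ± 0.22 (limma, adjusted p = 0.0013). Hs3st3b1 and Ndst2, which sulfate heparan sulfate, were the other 2 members above. St3gal4, a sialyltransferase, was the member below.

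Immediate-early genes are switched on within minutes of a stimulus, without new protein synthesis, and they also respond to enzymatic release of cells from tissue. Of 29 tested members of this list 15 lay above (51.7%, against 4.29% of all tested genes) and none below. Against the mean of both groups 18 were called higher. The median difference was 0.72 from wild type and 2.09 from bone-marrow macrophages, and under equal totals 14 still lay above. How far cell handling differed between the groups is not given in the labels, and its part in these values was not tested. Egr2, a zinc finger factor (chromosome 10, 67535475 to 67542188, plus strand), had 245, 367 and 311 normalised counts in repopulating microglia, 93.0 and 122 in the wild type and 17.6, 23.3 and 31.7 in bone-marrow macrophages. The groups were ordered in the same way for Ier3, an early response gene that acts on cell survival (chromosome 17, 35821684 to 35822923, plus strand), with 1815, 1985 and 978 in repopulating microglia, then 539.6 and 475 in wild type and then 83.0, 164 and 198 in bone-marrow macrophages. Against the mean of both groups Egr2 was higher by 2.57 ± 0.23 (limma, adjusted p = 0.00081) and Ier3 by 2.51 ± 0.32 (adjusted p = 0.0024).

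Ier2, another early response gene (chromosome 8, 84661331 to 84662852, minus strand), had 3732, 4453 and 3605 in the repopulating libraries, 1752 and 1704 in the wild type and 685, 869 and 1302 in bone-marrow macrophages. Btg2, an antiproliferative gene that p53 also induces (chromosome 1, 134075170 to 134079120, minus strand), had 13065, 9769 and 12034, 5728 and 7504 in wild type and 1255, 1849 and 1857 in bone-marrow macrophages. Dusp2, a phosphatase that switches off MAP kinases (chromosome 2, 127336159 to 127338376, plus strand), had 561, 499 and 271, 154 and 91.5 in wild type and 44.9, 87.0 and 119.9 in bone-marrow macrophages. For all 3 genes the bone-marrow macrophages had the lowest mean. The differences from wild type were 1.18 ± 0.24 for Ier2 (adjusted p = 0.022), 0.82 ± 0.22 for Btg2 (0.055) and 1.83 ± 0.45 for Dusp2 (0.042) by limma, so that Btg2 missed the threshold there. Not every early gene took part. Fos, the partner of Jun in AP-1, had 24264, 21970 and 31976 in repopulating microglia and 21396 and 35574 in the wild type, which overlap.

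Inflammatory mediators were among the genes above. Of 29 cytokines and chemokines tested, 5 lay above (Tnf, Ccl3, Ccl4, Osm and Il12b) and none below, and 7 were called higher. Those above were 17.2% of the list, against 4.29% of all tested genes. Tnf, which encodes tumour necrosis factor (chromosome 17, 35199381 to 35202007, minus strand), had 1137, 2094 and 941 in the repopulating libraries, 344 and 304 in the wild type and 245, 432 and 541 in bone-marrow macrophages. The wild type and the bone-marrow macrophages overlapped, and all repopulating libraries were above them. The difference from the mean of both was 1.89 ± 0.31 (limma, adjusted p = 0.0066). The chemokine Ccl3 (chromosome 11, 83647844 to 83649355, minus strand) had 1438, 2206 and 2221, against 656 and 663 in wild type and 436, 819.8 and 944 in bone-marrow macrophages, and was higher by 1.50 ± 0.26 (adjusted p = 0.0081). Ccl4 (chromosome 11, 83662584 to 83664683, plus strand) had 3690.1, 4899.9 and 2381, against 1514 and 1672 in wild type and 425, 706 and 867 in bone-marrow macrophages. It was higher by 1.80 ± 0.28 (adjusted p = 0.0051). Ccrl2, an atypical receptor that presents chemerin (chromosome 9, 111054486 to 111057519, minus strand), had 4257, 4276 and 2588, against 819.5 and 957 in wild type and 648, 1401 and 1587 in bone-marrow macrophages, with a difference of 1.85 ± 0.30 (adjusted p = 0.0063). Library 3 had the lowest repopulating value of Tnf, Ccl4 and Ccrl2, and not of Ccl3.

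In the list of the interleukin-1 family and its signalling, 3 of 27 tested genes lay above and none below: the cytokine Il1a, its receptor Il1r1 and the interleukin-36 receptor Il1rl2. The same 3 were the calls of this list, whose median difference was 0.10. Its share above was 11.1%, against 4.29% of all tested genes. Il1a (chromosome 2, 129299610 to 129309972, minus strand) had 1699, 2364 and 1433 in repopulating libraries 1 to 3, 882 and 847 in the wild type and 269, 474 and 449.7 in bone-marrow macrophages. The lowest repopulating library was 1.62-fold above the highest other on the normalised count + 1 scale, and the difference from the mean of both groups was 1.63 ± 0.22 (limma, adjusted p = 0.0031). Il1r1 (chromosome 1, 40225080 to 40317257, plus strand) was low everywhere, with 32.1, 38.4 and 27.6, against 18.2 and 9.15 in wild type and 11.9, 6.36 and 13.2 in bone-marrow macrophages. It was higher by 1.43 ± 0.35 (adjusted p = 0.032), a call that 9 of 20 alternative settings did not keep. Il1rl2 (chromosome 1, 40324610 to 40367562, plus strand) had 247, 204 and 283, against 177 and 126 in wild type and 113, 126 and 138 in bone-marrow macrophages, and was higher by 0.82 ± 0.17 (adjusted p = 0.018). The call of Il1rl2 was lost in 4 settings, among them without repopulating library 1 and without the second wild-type library. Il1b did not take part: its repopulating libraries, at 440.1, 980 and 288, overlapped with the wild type at 435 and 352.

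NF-kappaB is the factor that interleukin-1, tumour necrosis factor and Toll-like receptors activate, and it induces its own inhibitors. Of 23 tested subunits and feedback genes 4 lay above (Rel, Relb, Nfkbia and Tnfaip3) and 2 below (Traf1 and Tnfaip2), a mixed direction with a median difference of 0.19. Their shares were 17.4% and 8.7%, against 4.29% and 4.66% of all tested genes. Nfkbia, the inhibitor that holds NF-kappaB in the cytoplasm (chromosome 12, 55489410 to 55492647, minus strand), had 6253, 5386 and 3906, against 2712 and 3504 in the wild type and 1067, 1651 and 2171 in bone-marrow macrophages. It was higher by 1.21 ± 0.24 (limma, adjusted p = 0.016). Nfkbid, a nuclear inhibitor protein outside that list (chromosome 7, 30421732 to 30428746, plus strand), had 904, 1048 and 832, against 218 and 359.9 in wild type and 103, 189.8 and 286 in bone-marrow macrophages, and was higher by 2.05 ± 0.31 (adjusted p = 0.0046). Tnfaip3, the deubiquitinase A20 (chromosome 10, 19000910 to 19015657, minus strand), had 2068, 1969 and 2201, against 878 and 1478 in wild type and 431, 862 and 906 in bone-marrow macrophages, and was higher by 1.22 ± 0.26 (adjusted p = 0.020). Calls of Nfkbia and Tnfaip3 were lost without repopulating library 1 and without the first wild-type library. Rel, the NF-kappaB subunit c-Rel of immune cells (chromosome 11, 23736847 to 23770970, minus strand), had 193, 201 and 174, against 104 and 125 in wild type and 127, 146 and 105 in bone-marrow macrophages. Its difference of 0.66 ± 0.16 (adjusted p = 0.029) was lost as a call in 8 settings. Tnfaip2, which tumour necrosis factor induces, had 93.5, 98.9 and 114 in repopulating microglia, against 281 and 166 in wild type and 323, 328 and 318 in bone-marrow macrophages, and was lower by 1.37 ± 0.18 (adjusted p = 0.0027).

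A RefSeq promoter (GRCm38.p6, 250 bases before to 50 after the start) was at hand for 3 of the 4 NF-kappaB genes above, and all 3 held a kappaB site, against 12.3% of the 9211 tested genes with a promoter, 8.46% of all 32851 promoters and 14.5% of the genes above. Of the whole NF-kappaB list 10 of 19 held one. The motif was searched on both strands. Further motifs were counted in this and other lists, and most of those counts are not given here. The AP-1 motif stood in 0 of 25 promoters of tested immediate-early genes. A kappaB site stood in 0 of 3 promoters of the cytokines and chemokines above, and in 5 of 12 of the immediate-early genes above. To show what is counted, the windows of Nfkbia (chr12:55492648-55492767, minus strand) and Rel (chr11:23770997-23771116, minus strand) follow, 5′ to 3′, with the sites in capitals. In Rel the capitals are 2 overlapping matches.
Nfkbia: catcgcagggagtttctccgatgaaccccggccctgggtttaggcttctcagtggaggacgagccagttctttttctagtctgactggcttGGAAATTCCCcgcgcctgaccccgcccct
Rel: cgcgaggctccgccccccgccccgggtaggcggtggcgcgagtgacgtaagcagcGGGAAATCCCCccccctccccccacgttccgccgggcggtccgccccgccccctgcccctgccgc
These letters are matches in the genome and not measured binding.

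Genes induced by type I interferon rose in part of the list. Of 52 tested members 11 lay above (21.2%, against 4.29% of all tested genes) and none below. Calls were 18 higher and none lower, and the median difference was 0.71. Ifit2, an antiviral RNA-binding protein (chromosome 19, 34550694 to 34576419, plus strand), had 1945, 1395 and 754 in repopulating libraries 1 to 3, 513 and 404 in the wild type and 376, 475 and 457 in bone-marrow macrophages. Ifit3, its neighbour and partner (chromosome 19, 34583531 to 34588731, plus strand), had 993, 655 and 484, against 314 and 303 in wild type and 122, 196 and 216 in bone-marrow macrophages. In both genes library 1 was the highest and library 3 the lowest of the repopulating ones. Ifit2 was higher than the mean of both groups by 1.51 ± 0.27 (limma, adjusted p = 0.010) and Ifit3 by 1.55 ± 0.26 (adjusted p = 0.0068). Stat2, a subunit of the factor that carries the interferon signal to the nucleus (chromosome 10, 128270559 to 128292849, plus strand), had 493, 373 and 601, against 205 and 195 in wild type and 295, 327 and 337 in bone-marrow macrophages, and here library 3 was the highest. It was higher by 0.92 ± 0.16 (adjusted p = 0.0082). Ddx58, the RNA sensor RIG-I (chromosome 4, 40203773 to 40239828, minus strand), had 809, 605 and 576, against 411 and 458 in wild type and 266, 308 and 281 in bone-marrow macrophages, and was higher by 0.90 ± 0.14 (adjusted p = 0.0053).

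Library 3 set how many interferon genes met the rule. Relative to the mean of both other groups, the median of the list was 1.22 and 0.64 in repopulating libraries 1 and 2 and 0.23 in library 3, whereas the wild type stood at 0.16 and -0.10. Without library 3, 31 of the 52 lay above and 43 were called higher, and under equal totals 7 lay above. Isg15, a ubiquitin-like protein that interferon induces, had 854, 573 and 325 in the repopulating libraries and 599 and 386 in the wild type, so libraries 2 and 3 lay within or under the wild-type range. Irf7, the factor that amplifies the response, had 2171, 1272 and 912 in the repopulating libraries, 977 and 798 in the wild type and 648, 830.4 and 1023 in bone-marrow macrophages, and library 3 alone kept it from the rule. Neither gene was called against the mean of both groups (limma, adjusted p = 0.18 and 0.15).

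Interferon genes carry a response element that Stat2 binds in a complex. The element, searched as TTTC, any 2 bases, TTTC on both strands, stood in 21 of 38 promoters of the list, in 4 of the 6 at hand for its members above, and in 3.97% of the promoters of tested genes and 3.44% of all promoters. In the genes above as a whole the share was 5.41%. The windows of Ifit3 (chr19:34583335-34583454, plus strand) and Stat2 (chr10:128270248-128270367, plus strand) are shown from 5′ to 3′ with the elements in capitals, 2 in Ifit3 and 1 in Stat2.
Ifit3: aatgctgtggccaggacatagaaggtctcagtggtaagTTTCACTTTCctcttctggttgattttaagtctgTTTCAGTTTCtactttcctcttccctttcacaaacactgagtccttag
Stat2: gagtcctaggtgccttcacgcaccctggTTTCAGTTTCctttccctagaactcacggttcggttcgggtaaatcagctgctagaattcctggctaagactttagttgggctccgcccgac
Both genes were highest in the 3 repopulating libraries, as the values above show.

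Among the lists with at least 10 tested genes, complement genes had the largest share of members above, at 53.3% against 4.29% of all tested genes. They were 8 of 15, with none below. Among them were C1qb and C1qc, subunits of the initiator of the classical pathway, the convertase components C2, C4b and Cfb, and Itgam and Itgb2, which form the receptor CR3. C2 (chromosome 17, 34862604 to 34898265, minus strand) had 118, 97.4 and 56.4 in repopulating microglia, 12.8 and 30.5 in the wild type and 4.55, 6.36 and 2.65 in bone-marrow macrophages, and was higher by 3.06 ± 0.40 (limma, adjusted p = 0.0027). C1qb (chromosome 4, 136880129 to 136886187, minus strand) had 49231, 45947 and 48626, against 37948 and 35787 in wild type and 27802, 28399 and 30642 in bone-marrow macrophages. The groups did not overlap, yet its call (0.55 ± 0.12, adjusted p = 0.023) was lost in 11 of 21 settings. All of the 8 but Cfb were called higher. Under equal totals 3 of the 15 lay above.

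Lysosomal and phagocytic genes lay above in 8 of 41 cases (19.5%, against 4.29% of all tested genes) and below in none. The median difference of the list was 0.26 from wild type and 0.30 from bone-marrow macrophages. Man2b1, the lysosomal alpha-mannosidase (chromosome 8, 85083270 to 85098282, plus strand), had 18677, 20429 and 23375 in the repopulating libraries, 9541 and 9288 in the wild type and 10858, 12246 and 12036 in bone-marrow macrophages, and was higher by 0.98 ± 0.12 (limma, adjusted p = 0.0023). Grn, which encodes progranulin (chromosome 11, 102430315 to 102437048, plus strand), had 46400, 41815 and 37422, against 25314 and 24206 in wild type and 22274, 24922 and 25971 in bone-marrow macrophages, and was higher by 0.77 ± 0.13 (adjusted p = 0.0086). Ctsa, a protective cathepsin (chromosome 2, 164832873 to 164841032, plus strand), had 13998, 13957 and 15374, against 9128 and 8852 in wild type and 8337, 9327 and 9739.6 in bone-marrow macrophages. Its difference was 0.67 ± 0.11 (adjusted p = 0.0065), a call lost under quantile normalisation alone. Ctsd, Ctsh, Hexa, Neu1 and Npc2 were the other members above, and without library 3 there were 14 in all, under equal totals 5. Lgals3bp, a secreted glycoprotein of the disease-associated list (chromosome 11, 118392751 to 118402092, minus strand), had 22599, 11981 and 14635, against 6413 and 5323 in wild type and 5412, 6118 and 6787 in bone-marrow macrophages, and was higher by 1.41 ± 0.20 (adjusted p = 0.0041). That list had 7 of 29 members above (24.1%) and 1 below (3.45%).

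Part of the microglial signature stood highest after repopulation, although most of it did not. Of 40 tested signature genes 7 lay above (17.5%, against 4.29% of all tested genes) and none below, and 21 were called higher. The median difference was -0.22 from wild type and 1.38 from bone-marrow macrophages. Olfml3, a secreted olfactomedin protein typical of microglia (chromosome 3, 103722222 to 103738001, minus strand), had 34510, 31364 and 27649 in the repopulating libraries, 26129 and 21872 in the wild type and 7325, 6998 and 7799 in bone-marrow macrophages. The bone-marrow macrophages were far below both kinds of microglia, and the difference from wild type was 0.38 ± 0.16 (limma, adjusted p = 0.18). Ctss, the lysosomal protease cathepsin S (chromosome 3, 95526786 to 95556403, plus strand), had 146250, 137610 and 92819, against 85159 and 79762 in wild type and 55467, 62167 and 54800 in bone-marrow macrophages. Its difference of 0.84 ± 0.19 from the mean of both groups (adjusted p = 0.024) was lost as a call in 10 settings. P2ry6, a receptor for uridine diphosphate that triggers phagocytosis (chromosome 7, 100937630 to 100974649, minus strand), had 3504, 3378 and 3648, against 3066 and 3002 in wild type and 2361, 2280.2 and 2365 in bone-marrow macrophages, a narrow but separate band.

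In the list of trophic growth factors 5 of 17 tested members lay above (Csf1, Gas6, Gdf15, Vegfb and the receptor Igf2r). They were 29.4% of the list, against 4.29% of all tested genes. Gdf15 and Igf2r were low, with repopulating means of 25.6 and 40.2 normalised counts. Csf1, the growth factor on which microglia depend (chromosome 3, 107741048 to 107760469, minus strand), had 534, 378 and 1062 in the repopulating libraries, 279 and 264 in the wild type and 43.2, 58.3 and 60.0 in bone-marrow macrophages. Library 3 was the highest, and the groups formed 3 separate steps. The difference was 3.47 ± 0.33 from bone-marrow macrophages (limma, adjusted p = 0.00013) and 1.14 ± 0.37 from wild type (adjusted p = 0.097), which did not pass. Among receptors of blood-cell growth factors, Csf3r, the receptor of G-CSF (chromosome 4, 126024550 to 126044440, plus strand), had 3382, 2872 and 4639.5, against 2125 and 1768 in wild type and 573, 753 and 707 in bone-marrow macrophages. It was higher than wild type by 0.88 ± 0.22 (adjusted p = 0.042). Osm, the cytokine oncostatin M (chromosome 11, 4236420 to 4241026, plus strand), had 792, 826 and 708, against 426 and 435 in wild type and 208, 334 and 351 in bone-marrow macrophages, and was higher than wild type by 0.84 ± 0.22 (adjusted p = 0.0496).

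Several genes with a wide separation fell outside the lists described so far. Niacr1, a receptor for niacin and ketone bodies (chromosome 5, 123863570 to 123865499, minus strand), had 408, 1001 and 232 in the repopulating libraries, 154 and 61.0 in the wild type and 115, 127 and 103 in bone-marrow macrophages. Its 3 repopulating libraries differed widely among themselves, and its call (2.10 ± 0.46, limma, adjusted p = 0.020) was lost in 5 settings. Gpr162, an orphan receptor (chromosome 6, 124858444 to 124863983, minus strand), was even across the repopulating libraries, with 157, 183 and 166, against 52.4 and 61.0 in wild type and 64.8, 42.4 and 69.7 in bone-marrow macrophages. It was higher by 1.54 ± 0.20 (adjusted p = 0.0025). Adcy3, an adenylyl cyclase (chromosome 12, 4133103 to 4213525, plus strand), had 200.2, 201 and 154, against 68.4 and 51.9 in wild type and 40.9, 75.3 and 68.8 in bone-marrow macrophages, and was higher by 1.61 ± 0.23 (adjusted p = 0.0041). Kdr, a receptor for vascular endothelial growth factor known from endothelium (chromosome 5, 75932827 to 75978458, minus strand), had 157, 102 and 128, against 38.5 and 69.1 in wild type and 20.5, 7.42 and 20.3 in bone-marrow macrophages, and was higher by 2.15 ± 0.37 (adjusted p = 0.0075). The summed level of 3 endothelial markers, which include Kdr, was 169.7 to 236 in the repopulating libraries, 105 and 217 in the wild type and 17.0 to 33.5 in the bone-marrow macrophages, and Kdr itself made up most of the sum in repopulating microglia. The longer list of 12 endothelial and mural markers had Kdr as its 1 member above, and its median difference was -1.08 from wild type and 2.27 from bone-marrow macrophages. The part of endothelial RNA in the value of Kdr was not tested.

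TGF-beta is known to keep microglia in their resting identity. Of 22 tested ligands, receptors and regulators 3 lay above (Tgif1, Skil and Bmpr2) and none below. The share above was 13.6%, against 4.29% of all tested genes. Skil, a repressor of Smad factors (chromosome 3, 31095058 to 31122577, plus strand), had 1689, 1806 and 1773 in the repopulating libraries, 1369 and 1615 in the wild type and 1130.3, 1273 and 984 in bone-marrow macrophages, a difference of 0.44 ± 0.12 (limma, adjusted p = 0.045). Bmpr2, a receptor of bone morphogenetic proteins (chromosome 1, 59763400 to 59879014, plus strand), had 431, 376 and 361, against 192 and 243 in wild type and 281, 313 and 239.8 in bone-marrow macrophages, a difference of 0.67 ± 0.14 (adjusted p = 0.019). The 2 other groups were in opposite order for these genes, with wild type higher for Skil and bone-marrow macrophages for Bmpr2. The call of Skil was lost in 13 of 21 settings, among them TMM factors and edgeR's quasi-likelihood test, and that of Bmpr2 in 5.

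The cell-cycle inhibitor Cdkn1a lay above, whereas 13 of 44 tested genes of DNA replication lay below. Cdkn1a, the inhibitor p21 that p53 induces (chromosome 17, 29090976 to 29100727, plus strand), had 905, 1504 and 478 in repopulating libraries, 298 and 322 in the wild type and 332, 337 and 398 in bone-marrow macrophages. Library 3 was closest to the other groups, and the difference of 1.38 ± 0.31 (limma, adjusted p = 0.023) was lost as a call in 7 of 21 settings. Of 22 tested p53 targets 6 lay above (27.3%) and 1 below (4.55%), against 4.29% and 4.66% of all tested genes. Against the mean of both groups 3 were called higher and 2 lower. Without library 3 there were 13 above.

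Replication genes lay below in 13 of 44 cases (29.5%, against 4.66% of all tested genes). Against the mean of both groups 32 of the 44 were called lower, as were 5.50% of all tested genes. The bone-marrow macrophages carried that difference: the median was -2.09 from them and -0.16 from wild type. Tyms, thymidylate synthase (chromosome 5, 30058202 to 30073617, minus strand), had 62.3, 72.3 and 49.5 in repopulating microglia, against 85.5 and 88.5 in wild type and 349, 273 and 343 in bone-marrow macrophages. It was only a step below the wild type and several-fold below the bone-marrow macrophages. Against wild type the difference was -0.51 ± 0.21 (limma, adjusted p = 0.16). Prim2, a primase subunit (chromosome 1, 33453810 to 33669795, minus strand), was further from wild type and nearer to bone-marrow macrophages than Tyms, with 66.1, 54.6 and 42.6, against 116 and 119 in wild type and 162, 144 and 183 in bone-marrow macrophages, and was lower than wild type by 1.12 ± 0.22 (adjusted p = 0.021). Rrm1, the large subunit of ribonucleotide reductase (chromosome 7, 102441695 to 102469771, plus strand), was the closest to wild type of those named here, with 334, 366 and 278, against 404 and 371 in wild type and 1421, 1168 and 1280.4 in bone-marrow macrophages. Mitotic genes hardly met the rule: only Mad2l1 of 39 tested members (2.56%) lay below, although 32 of the 39 were called lower. Their median difference was 0.15 from wild type and -3.12 from bone-marrow macrophages. Top2a, a topoisomerase of dividing cells, had 78.4, 84.1 and 77.2 in repopulating microglia and 93.0 and 74.2 in the wild type, against 1368, 1160.3 and 1356 in bone-marrow macrophages.

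**Figure D3:**
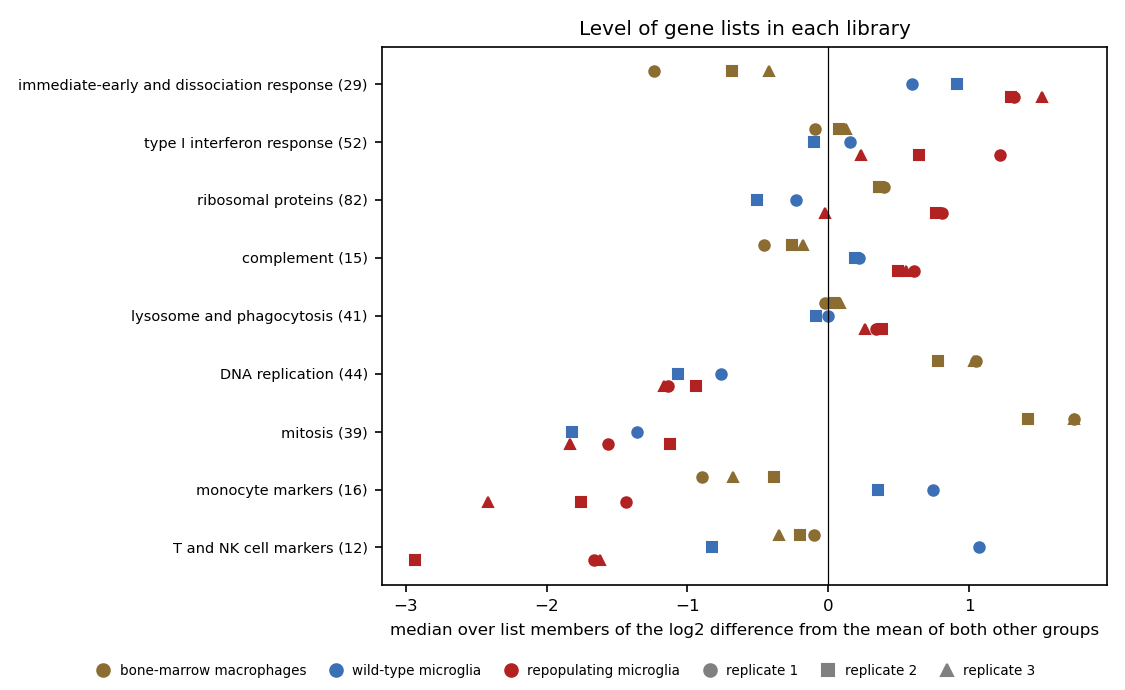
For 9 gene lists, with the number of tested members in brackets, each point is the median over members of the log2 difference of 1 library from the mean of the wild-type and bone-marrow group means. Interferon and ribosomal genes have repopulating library 3 at 0.23 and -0.03, away from libraries 1 and 2, whereas in immediate-early, complement and lysosomal genes the 3 repopulating libraries lie together on the right.

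Ribosomal protein genes depended on 1 library. Of 82 tested members 6 lay above with all libraries (7.32%, near the 4.29% of all tested genes). Without library 3 there were 71, among the 1180 genes above in that setting. Relative to the mean of both groups, their median was 0.81 and 0.76 in libraries 1 and 2 and -0.03 in library 3, and 12 were called higher. Rps9 (chromosome 7, 3703993 to 3706897, plus strand) had 25802, 23595 and 18452 in the repopulating libraries, 13105 and 10793 in the wild type and 15174, 15049 and 17739 in bone-marrow macrophages. Under equal totals 1 member lay above.

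The 9 genes called lower than each group were Spn, Ccnd2, Ly6c2, Napsa, S100a11, Trem1, Treml4, Atp8b4 and AA467197. Several are surface proteins of blood monocytes, granulocytes or lymphocytes. In bulk RNA, fewer cells of a type in the sorted sample and less RNA per cell cannot be told apart, which holds for every gene named from here on.

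Spn, the sialoglycoprotein CD43 of leukocytes (chromosome 7, 127132232 to 127137823, minus strand), had 23.6, 25.1 and 11.5 normalised counts in repopulating libraries 1 to 3, 179.5 and 109.8 in the wild type and 609, 501 and 582 in bone-marrow macrophages. The differences were -2.82 ± 0.34 from wild type and -4.81 ± 0.31 from bone-marrow macrophages (limma, adjusted p = 0.029 for both). Ccnd2, the cell-cycle cyclin D2 (chromosome 6, 127125162 to 127152193, minus strand), had the same order of groups, with 11.3, 7.38 and 4.61, 59.8 and 51.9 in wild type and 351, 245 and 276 in bone-marrow macrophages. Its differences were -2.77 ± 0.34 and -5.11 ± 0.30 (adjusted p = 0.029). Ly6c2, a surface antigen that marks inflammatory monocytes (chromosome 15, 75108158 to 75111970, minus strand), was highest in the wild type, with 23.6, 11.8 and 15.0 in the repopulating libraries, 1366 and 857 in the wild type and 94.3, 80.6 and 67.0 in bone-marrow macrophages. The differences were -5.98 ± 0.32 and -2.24 ± 0.29 (adjusted p = 0.034).

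Napsa, the aspartic protease napsin A (chromosome 7, 44572380 to 44586862, plus strand), had 32.1, 64.9 and 25.3, against 661 and 411 in the wild type and 257, 237 and 289 in bone-marrow macrophages. S100a11, a calcium-binding protein (chromosome 3, 93520488 to 93526287, plus strand), had 87.8, 87.1 and 61.0, against 584 and 547 in wild type and 322, 279 and 325 in bone-marrow macrophages. Both were highest in the wild type. The differences of S100a11 were -2.85 ± 0.19 from wild type and -1.98 ± 0.17 from bone-marrow macrophages (limma, adjusted p = 0.0083), and those of Napsa were -3.76 ± 0.37 and -2.76 ± 0.33 (adjusted p = 0.029). Trem1, a receptor that amplifies inflammatory signals in neutrophils and monocytes (chromosome 17, 48232768 to 48246924, plus strand), had similar levels in both other groups, with 12.3, 13.3 and 8.06 in repopulating microglia, 79.1 and 90.5 in the wild type and 115, 106 and 103 in bone-marrow macrophages. Treml4 lies beside it (chromosome 17, 48264295 to 48275360, plus strand) and had 8.50, 5.90 and 5.76, 104 and 51.9 in wild type and 35.8, 41.4 and 46.7 in bone-marrow macrophages. For Trem1 the differences were -2.84 ± 0.26 and -3.18 ± 0.24 (adjusted p = 0.0089), and for Treml4 -3.29 ± 0.36 and -2.46 ± 0.32 (adjusted p = 0.035).

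Atp8b4, a phospholipid flippase (chromosome 2, 126320973 to 126500674, minus strand), had 3.78, 4.43 and 4.61, against 44.9 and 31.5 in wild type and 88.7, 92.3 and 73.2 in bone-marrow macrophages, with differences of -2.88 ± 0.29 and -4.02 ± 0.26 (limma, adjusted p = 0.012). AA467197, the host gene of Mir147 (chromosome 2, 122636986 to 122641191, plus strand), had 11.3, 13.3 and 5.76, against 105 and 69.1 in wild type and 58.5, 71.1 and 52.0 in bone-marrow macrophages, with differences of -3.02 ± 0.37 and -2.53 ± 0.33 (adjusted p = 0.035). Both were low in the repopulating libraries, where the log2(value + 1) scale understates a change.

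Markers of recruited monocytes were among the genes below. Of 16 tested markers 5 lay below (Ly6c2, Ccr2, Vcan, F10 and Treml4) and 1 above (Nr4a1, also an immediate-early gene), and 9 were called lower. Those below were 31.2% of the list, against 4.66% of all tested genes. F10 and Treml4 reached 10 normalised counts in no repopulating library and passed the filter through the other groups. Ccr2, the chemokine receptor that brings monocytes out of the marrow (chromosome 9, 124101950 to 124113557, plus strand), had 304, 363 and 94.4 in the repopulating libraries, 911 and 949 in the wild type and 1386, 1195 and 917 in bone-marrow macrophages. The other 2 groups had similar levels, and library 3 had the lowest level of all. The difference from their mean was -2.24 ± 0.39 (limma, adjusted p = 0.0088). Plac8, another marker of monocytes, did not meet the rule. It had 326, 102 and 143 in the repopulating libraries, 2829 and 1128 in the wild type and 133, 109 and 66.1 in bone-marrow macrophages. The next genes, Plbd1, Emb and F13a1, lay below but stand outside the monocyte list. Plbd1, a phospholipase B-like protein of myeloid granules (chromosome 6, 136612070 to 136661928, minus strand), had 136, 146 and 40.3, against 628 and 517 in wild type and 1278, 1206 and 1258 in bone-marrow macrophages, and was lower by 3.17 ± 0.38 (adjusted p = 0.0020). Emb, the membrane glycoprotein embigin (chromosome 13, 117208536 to 117274415, plus strand), had 52.9, 50.2 and 11.5, against 334 and 279 in wild type and 578, 539.8 and 487 in bone-marrow macrophages, and was lower by 3.64 ± 0.44 (adjusted p = 0.0021). F13a1, the coagulation factor XIII subunit found in monocytes and border-associated macrophages (chromosome 13, 36867178 to 37050244, minus strand), had 95.4, 149 and 92.1, against 343 and 465 in wild type and 422, 516 and 280.4 in bone-marrow macrophages. It was lower by 1.85 ± 0.24 (adjusted p = 0.0027).

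Some T and NK cell markers were also among the genes below, from a low level. Of 12 tested T and NK cell markers 5 lay below (Cd2, Gzma, Gzmb, Nkg7 and Il2rb) and none above, and 7 were called lower. Those below were 41.7% of the list, against 4.66% of all tested genes. Gzma, Gzmb, Nkg7 and Il2rb reached 10 normalised counts in no repopulating library and passed the filter through the other groups. The filter thus in part set the 41.7%. Gzma, a protease of killer cells (chromosome 13, 113093825 to 113100981, minus strand), had 2.83, 4.43 and 1.15 in the repopulating libraries, 302 and 44.7 in the wild type and 31.8, 23.3 and 12.3 in bone-marrow macrophages, and was lower by 3.84 ± 0.63 (limma, adjusted p = 0.0065). The 2 wild-type libraries differed several-fold. Of 17 neutrophil markers 2 lay below (11.8%) and 1 above (5.88%), and 11 were called lower. Their median difference was -3.47 from wild type and 0.65 from bone-marrow macrophages, so the 2 comparisons went opposite ways. Of 4 tested B cell markers none lay above or below. Mpo, the myeloperoxidase of granules (chromosome 11, 87793581 to 87804413, plus strand), had 4.72, 2.95 and 0, against 303 and 73.2 in wild type and 29.6, 18.0 and 23.8 in bone-marrow macrophages. It was lower by 4.42 ± 0.65 (limma, adjusted p = 0.0041). Ctsg, cathepsin G, had no read in any repopulating library, 35.3 and 19.3 in the wild type and 3.41, 5.30 and 7.05 in bone-marrow macrophages. Mpo and Ctsg thus passed the filter through the other groups alone. S100a8, an abundant neutrophil protein, was not among the genes below, since it had 911, 731 and 343 in repopulating microglia, 9011 and 7656 in the wild type and 316, 198 and 221 in bone-marrow macrophages.

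The summed level of 6 monocyte markers was 264 to 682 normalised counts in the repopulating libraries, 3211 and 5472 in the wild type and 1083 to 1684 in the bone-marrow macrophages. For 6 neutrophil markers the sums were 1573 to 2961, 25220 and 27290, and 747 to 1249. For 5 T and NK cell markers they were 1.48 to 11.5, 47.8 and 144, and 37.9 to 46.7. Of the monocyte markers 4 of 6 lay below, of the neutrophil markers 0 of 6, and of the T and NK cell markers 1 of 5. None of these markers was at 0 in all repopulating libraries. The monocyte, T and NK cell sums thus include genes below, so the rule in part set how low they are in repopulating microglia. The part of such cells in the genes below was not tested. Border-associated macrophages were tracked by 6 markers with sums of 352.5 to 1579 in the repopulating libraries, 460.5 and 753 in the wild type and 6525 to 8149 in the bone-marrow macrophages, and none of the 6 lay above or below. In the longer list of such markers 2 of 14 tested members lay below (14.3%), F13a1 and Clec10a. Of the 14, 4 were called lower and 1 higher.

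**Figure D4:**
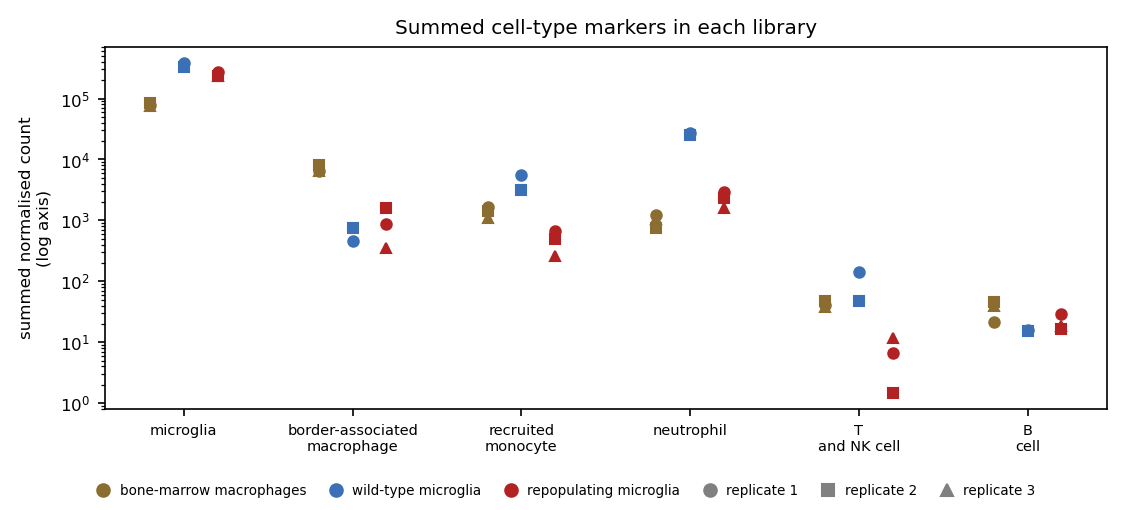
Summed normalised counts (log axis) of fixed marker genes of 6 cell types in each library, by group. Repopulating microglia have the lowest monocyte and T and NK cell sums of the 3 groups, and neutrophil sums of 1573 to 2961, between those of the wild type and of the bone-marrow macrophages. Of the markers summed, 4 of 6 for monocytes and 1 of 5 for T and NK cells are themselves genes below.

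Core genes of antigen presentation on MHC class II lay below. Of 11 tested members 5 were below and none above: H2-Aa, H2-Ab1 and H2-Eb1, which encode the chains that bind peptide, Cd74, the invariant chain that guides them to the lysosome, and Ciita, the coactivator that all of them need. All 5 were called lower, whereas H2-Oa and H2-Ob were called higher, and the median of the list was -0.09. The 5 were 45.5% of the list, against 4.66% of all tested genes. H2-Aa (chromosome 17, 34282744 to 34287823, minus strand) had 2418, 2882 and 835 in the repopulating libraries, 6609 and 5234 in the wild type and 7322, 5195 and 5633 in bone-marrow macrophages. H2-Ab1 (chromosome 17, 34257689 to 34269419, plus strand) had 2009.9, 2232 and 977, against 5394 and 4273 in wild type and 5774, 4249.7 and 5412 in bone-marrow macrophages. In both, the other 2 groups overlapped and library 3 was the lowest. The difference from their mean was -1.72 ± 0.37 for H2-Aa (limma, adjusted p = 0.019) and -1.60 ± 0.26 for H2-Ab1 (adjusted p = 0.0067).

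H2-Eb1 (chromosome 17, 34305867 to 34316674, plus strand) had 1896, 1967 and 767, against 4867 and 3906 in the wild type and 5824, 4255 and 5429 in bone-marrow macrophages, and was lower by 1.73 ± 0.30 (limma, adjusted p = 0.0083). Cd74 had 4208, 4708 and 2457, against 9642 and 8923 in wild type and 16921, 12305 and 15669 in bone-marrow macrophages, and was lower by 1.68 ± 0.22 (adjusted p = 0.0026). Ciita (chromosome 16, 10480059 to 10528418, plus strand) had 12.3, 22.1 and 18.4, against 34.2 and 23.4 in wild type and 90.4, 76.4 and 103 in bone-marrow macrophages. Its wild-type level was close to that of the repopulating cells, with a difference of -0.69 ± 0.32 (adjusted p = 0.21). The call of H2-Aa was lost in 5 of 21 settings, among them without either wild-type library, and that of H2-Eb1 with a covariate for Y-linked transcripts. MHC class II is abundant on monocyte-derived and dendritic cells, whose part in this difference was not tested.

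Class II genes share a Y box near the start, searched here as CTGATTGG on both strands. Both members below with a promoter at hand held it, against 6.71% of tested genes with a promoter, 4.1% of all promoters and 8.41% of the genes below. Of the whole class II list 3 of 8 held these letters. The holders were H2-Aa, H2-Eb1 and H2-Oa, the last of which was called higher. The windows of H2-Aa (chr17:34287824-34287943, minus strand) and H2-Eb1 (chr17:34305747-34305866, plus strand) are given 5′ to 3′ up to the base before the start, with the box in capitals.
H2-Aa: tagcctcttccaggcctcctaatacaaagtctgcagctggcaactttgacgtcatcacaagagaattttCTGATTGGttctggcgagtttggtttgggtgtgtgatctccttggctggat
H2-Eb1: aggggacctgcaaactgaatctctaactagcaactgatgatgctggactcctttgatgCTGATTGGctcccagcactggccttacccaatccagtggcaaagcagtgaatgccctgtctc
The box stands at a like distance from the start in both, -51 for the first base in H2-Aa and -62 in H2-Eb1.

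Further genes below belonged to lectins, proteases and metabolism. Mgl2, a galactose-binding lectin of macrophages and dendritic cells (chromosome 11, 70130329 to 70137550, plus strand), had 51.0, 56.1 and 27.6, against 111 and 194 in the wild type and 180.1, 143 and 181 in bone-marrow macrophages, and was lower by 1.84 ± 0.28 (limma, adjusted p = 0.0045). Clec4e, the receptor Mincle for mycobacterial glycolipids (chromosome 6, 123281789 to 123289870, minus strand), had 4.72, 10.3 and 4.61, against 88.7 and 69.1 in wild type and 27.3, 31.8 and 23.8 in bone-marrow macrophages, and was lower by 2.73 ± 0.31 (adjusted p = 0.0017). Xdh, xanthine dehydrogenase of purine breakdown (chromosome 17, 73883895 to 73950196, minus strand), had 50.1, 51.7 and 21.9, against 193 and 152 in wild type and 123, 151 and 124 in bone-marrow macrophages, and was lower by 1.94 ± 0.29 (adjusted p = 0.0042). Crip1, a small LIM protein (chromosome 12, 113146316 to 113153879, plus strand), had 92.6, 119.5 and 42.6, against 435 and 296 in wild type and 718, 588 and 647 in bone-marrow macrophages, and was lower by 2.61 ± 0.31 (adjusted p = 0.0019). In all 4 the highest repopulating library was below the lowest of the others, with library 3 the lowest.

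S100a6, a calcium-binding protein of the same family as S100a11 (chromosome 3, 90612882 to 90624181, plus strand), had 81.2, 42.8 and 28.8 in the repopulating libraries, 750.1 and 529 in the wild type and 183, 177 and 205 in bone-marrow macrophages, and was lower by 2.86 ± 0.30 (limma, adjusted p = 0.0013). Mgst1, a microsomal glutathione transferase (chromosome 6, 138140316 to 138156755, plus strand), had 25.5, 22.1 and 9.21, against 284 and 144 in wild type and 106, 171 and 89.1 in bone-marrow macrophages, and was lower by 3.07 ± 0.38 (adjusted p = 0.0024). Sema4b, a semaphorin (chromosome 7, 80186841 to 80226527, plus strand), had 46.3, 33.9 and 95.6, against 219 and 295 in wild type and 225, 188 and 272 in bone-marrow macrophages, and was lower by 2.15 ± 0.31 (adjusted p = 0.0041). Here library 3 was the highest of the repopulating ones, in contrast to S100a6 and Mgst1. Cd97, an adhesion receptor of leukocytes (chromosome 8, 83723251 to 83741326, minus strand), had 141, 152 and 56.4, against 464 and 392 in wild type and 495, 515 and 477 in bone-marrow macrophages, and was lower by 2.10 ± 0.30 (adjusted p = 0.0038). Lgals3, the lectin galectin 3 and the one member of the disease-associated list below (chromosome 14, 47367751 to 47386160, plus strand), had 415, 487 and 164, against 902 and 655 in wild type and 1532, 1467 and 1512 in bone-marrow macrophages, and was lower by 1.74 ± 0.32 (adjusted p = 0.011). That call was lost without the first wild-type library and with the covariate for Y-linked transcripts.

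In glycolysis, isoforms of 1 enzyme went opposite ways. Pfkl, the liver-type subunit of phosphofructokinase (chromosome 10, 77986947 to 78010083, minus strand), had 867, 852 and 863 in the repopulating libraries, 550.3 and 598 in the wild type and 504, 460.3 and 642 in bone-marrow macrophages. Pfkp, the platelet-type subunit (chromosome 13, 6579768 to 6648777, minus strand), had 35.9, 47.2 and 26.5, 111 and 69.1 in wild type and 174, 162 and 175 in bone-marrow macrophages. The first was higher by 0.64 ± 0.13 (limma, adjusted p = 0.014) and the second lower by 1.75 ± 0.23 (adjusted p = 0.0027). The call of Pfkl was lost in 4 settings, equal totals among them. Of 25 tested glycolytic genes 2 lay above (8%) and 2 below (8%), and the median difference was 0.01. Over all tested genes 4.29% lay above and 4.66% below, so the few glycolytic members in either direction say little about the list. Among 28 tested integrins and adhesion genes, Itgam, Itgb2 and Itgb5 lay above (10.7%) and Itgb7 and Icam2 below (7.14%). These are likewise few members. Itgb7, the beta 7 chain of gut-homing lymphocytes (chromosome 15, 102215995 to 102231944, minus strand), had 23.6, 22.1 and 13.8, against 337 and 184 in wild type and 75.0, 87.0 and 74.1 in bone-marrow macrophages, and was lower by 2.79 ± 0.26 (adjusted p = 0.00091).

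**Figure D5:**
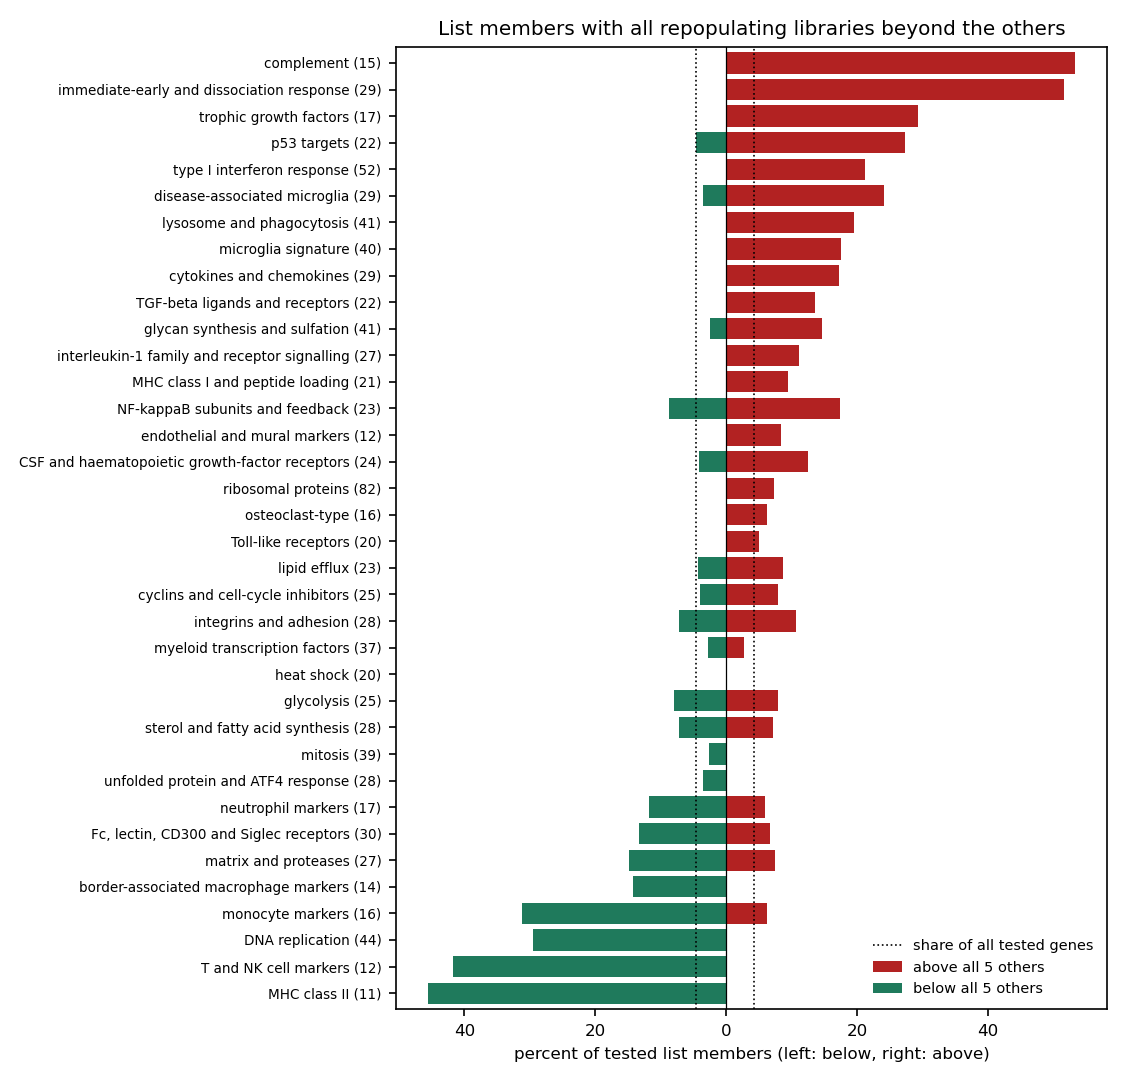
For each gene list with at least 10 tested members (number in brackets), the bars give the percent of members whose repopulating libraries all lay above (right) or below (left) the 5 others. Dotted lines mark the shares of all tested genes, 4.29% above and 4.66% below, and complement, immediate-early, MHC class II and T and NK cell lists reach furthest from them. In the T and NK cell list, Gzma, Gzmb, Nkg7 and Il2rb passed the filter only through the other groups.

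Some lists kept close to the background in their members above or below. Heat-shock genes had no member above or below among 20 tested, and the unfolded protein and ATF4 response had 1 below among 28. Myeloid transcription factors had 1 above, Bhlhe41, and 1 below, Pparg, among 37. Against the mean of both groups, however, 6 of the 37 were called higher and 1 lower. Of all tested genes 5.69% were called higher and 5.50% lower. The call of Bhlhe41 was lost in 13 of 21 settings. In sterol and fatty acid synthesis 2 lay above and 2 below among 28. Acly, which makes cytosolic acetyl-CoA (chromosome 11, 100476353 to 100528000, minus strand), had 2263, 2219.7 and 2399 in repopulating microglia, 1199 and 1489.5 in the wild type and 1287, 1259 and 1358 in bone-marrow macrophages, and was higher by 0.80 ± 0.11 (limma, adjusted p = 0.0028). Because the kit does not mark strand, reads cannot be told apart from those of a neighbour with overlapping exons for Spns2, St8sia1, St8sia6, Il1a, Il1b, C2, Itgam, Ctsa, Grn, Gas6, P2ry12, Tnfaip2, Cd74, Cd97, Emb, F13a1, Mpo, Adcy3, Ciita, Pfkp, Cdkn1a, Ccnd2, Top2a, Napsa, Irf7, Jun, Bhlhe41 and AA467197. Reads of Ly6c2, the Ifit and H2 genes, C4b and Mgl2 are uncertain because near-identical copies exist.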

How the data were processed

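RNA-seq of 8 mouse libraries was used. Per the labels, the kit (TruSeq RNA v2) does not mark strand. The submitters' processing notes list DESeq 1.14.0, HTSeq, TopHat2 2.0.10 and Bowtie2 2.1.0.0 with the build mm10, and what each did is not stated there. The authors deposited a signal per gene, which by its steps is a read count over a size factor specific to the library. Dividing by the step of each library gave whole reads for 100% of values (tolerance 0.01 reads), on which count tests were run. The columns named mono were assigned to the bone-marrow macrophages by exclusion. No column was left unused.

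Tests used log2(value + 1) in limma 3.58.1 (R 4.3.3), with a variance trend, 3 groups and no covariate, on genes with at least 10 in at least 2 libraries, at a two-sided Benjamini-Hochberg adjusted p of 0.05. A difference from each group at once used the larger of the 2 pairwise p-values where their signs agree. edgeR 4.0.16 (quasi-likelihood) and DESeq2 1.42.0 were alternatives on the recovered reads, with other pseudocounts, filters and scalings, library weights, a covariate of Y-linked transcripts, a replicate block and fits without each library. DESeq2 gave 12 adjusted p-values as NA. Scripts were tested on simulated data. The genes, the 42 lists and the motifs were chosen with earlier results of these data known, and the kappaB and Y box motifs were added after the values were seen. Named genes were, per direction, the 15 called genes with the largest difference from the nearer group and a mean of at least 100, up to 4 members per list, and some markers and controls chosen after their values were seen. Some members of the lists are not reported here by name. Gene coordinates are 1-based, from GENCODE vM21 of GRCm38 (mm10), and promoters from RefSeq GRCm38.p6. Depth was 5918944 to 12476427 reads per library.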

Additional observations from a re-analysis of the deposited data

How the results depend on the processing

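No named gene called in the comparison with both groups changed sign in an alternative run. The 1277 genes called against the mean of both groups ranged from 581 to 2798 when 1 library was left out, with 2798 without repopulating library 3 and 581 without the first wild-type library. The count was 543 with the covariate for Y-linked transcripts and 2931 with library weights, which gave repopulating library 3 a weight of 0.129. For the other settings it lay between 1008 (at least 50 in 3 libraries) and 1799 (DESeq2). The 15 genes that differed from each group at once became 157 with DESeq2, 287 with library weights, 25 under equal totals, 9 without the filter, 6 after quantile normalisation and 1 with the covariate, and 0 to 313 when 1 library was left out. The 490 genes above became 221, and the 532 below 1149, under equal totals. Leaving out 1 library gave 515 to 1180 above and 558 to 929 below, which fewer libraries allow by construction. The cause of the other shifts was not tested.

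Replicate numbers gave no sign of pairing: same-numbered libraries of different groups correlated at -0.24 to 0.244 in their deviations from the group means. The deviations of the 2 wild-type libraries mirror each other by construction, so this check cannot exclude pairing. A replicate block gave 1104 genes called against the mean and 7 against each group at once. Of 142 named calls, 49 were lost with the covariate, 18 under equal totals, 16 after quantile normalisation, 41 without the first wild-type library and 41 without repopulating library 1, whereas DESeq2 lost 0 and edgeR 1. Counting noise limits genes under about 10 normalised counts, and 2 wild-type libraries limit the test against each group at once.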

Other observations

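Mki67 and Ctsk, which are outside the rule, differed widely between the repopulating libraries. Mki67, a marker of dividing cells, had 2.83, 1.48 and 79.5 normalised counts in repopulating libraries 1 to 3, against 2.14 and 3.05 in the wild type. Ctsk, the protease cathepsin K, had 1928, 4203 and 70.3 in the same libraries, 0 and 19.3 in the wild type and 326, 857 and 600.5 in bone-marrow macrophages. Library 3 was the only microglial library with Mki67 above 10 and the lowest repopulating library for Ctsk. The tested mitosis genes as a list did not stand higher in library 3: the median log2 difference of 39 genes from the mean of both groups was -1.57, -1.12 and -1.84 in libraries 1 to 3. Neither Mki67 nor Ctsk was called against the mean of both groups (limma, adjusted p = 0.48 and 0.095). Sall1, a transcription factor of microglial identity, had 2595, 1864 and 6101 in the repopulating libraries, 3180 and 4056 in the wild type and 9.55 to 35.8 in bone-marrow macrophages, so the wild type lay within the range of the repopulating cells.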
